A study of Mus musculus with 4 samples.

Results

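The Hox genes of 4 RNA-seq libraries of primary liver sinusoidal endothelial cells (LSECs) are described here. Members were the rows of the gene table whose symbol is Hox, a cluster letter from a to d and a number, and 24 of the 18373 genes in the table met this rule. Of these, 23 are described here, 6 in Hoxa, 8 in Hoxb, 5 in Hoxc and 4 in Hoxd. Hox genes outside the table were not analysed here, other than in a count of promoter motifs. All libraries came from LSECs of 8-week-old Balb/c mice, selected for CD146 after perfusion of the liver, cultured for 24 h and transfected with siRNA for 48 h, with RNA taken at day 3. The NC group (2 libraries) received a negative control siRNA and the siAirn group (2 libraries) siRNA against Airn, a long noncoding RNA transcribed antisense to Igf2r and known for imprinted silencing. The libraries are numbered as biological replicates, but nothing states whether they came from separate mice or cultures, so p-values measure only the spread between these libraries. The siAirn libraries carry the names siAirn1_1 and siAirn1_2, and whether these are separate siRNAs or repeats of 1 siRNA is not settled by these names. The methods of the study speak of separate siRNAs against Airn, without saying which library received which.

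Hox genes encode homeodomain transcription factors that give cells their position along the body axis. They lie in clusters in which all the members described here are read in the same direction, and genes at the 3′ end (low numbers) are used more anteriorly and earlier in the embryo than genes at the 5′ end (high numbers). Adult endothelial cells and fibroblasts keep part of this positional pattern. The clusters are the classic targets of Polycomb group proteins, which hold unused Hox genes silent through trimethylation of histone H3 at lysine K27 by PRC2 and through PRC1, while Trithorax group proteins keep used ones active. Promoters rich in CpG dinucleotides are the usual place where Polycomb complexes are found in mammals. No chromatin was measured here, so the values below are RNA levels only.

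In GENCODE M21 (build GRCm38) Hoxa2 to Hoxa13 lie in chr6:52162417-52260880 on the minus strand (98.46 kb), Hoxb in chr11:96194316-96368256 (173.9 kb), Hoxc in chr15:102921103-103036852 (115.8 kb) and Hoxd in chr2:74668310-74765142 (96.83 kb), the last 3 on the plus strand. To show the kind of regulatory sequence these genes carry, the 250 bases before the transcription start are printed for 4 members, 5′ to 3′ on the gene's own strand, from the RefSeq promoter set of GRCm38.p6. Capitals mark each CG dinucleotide. Hoxa5 (chr6:52204588-52204837, minus strand) is the most abundant member in the LSEC libraries, and Hoxa7 (chr6:52218574-52218823, minus strand) is the next member with values on the 5′ side of it. Hoxb4 (chr11:96318017-96318266, plus strand) was used at a high level, and Hoxd10 (chr2:74691641-74691890, plus strand) had 0 counts in all 4 libraries. The windows of Hoxa5, Hoxb4 and Hoxd10 touch no annotated exon, and 78 bases of the Hoxa7 window lie under an exon of a longer Hoxa7 transcript. The Hoxa5 and Hoxa4 genes lie within the span of the longer Hoxa3 transcripts.
Hoxa5: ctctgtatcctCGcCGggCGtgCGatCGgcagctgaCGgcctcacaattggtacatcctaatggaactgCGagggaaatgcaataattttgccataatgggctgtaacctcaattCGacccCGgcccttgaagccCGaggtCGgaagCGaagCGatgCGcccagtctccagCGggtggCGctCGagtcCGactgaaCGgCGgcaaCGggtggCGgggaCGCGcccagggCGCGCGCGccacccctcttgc
Hoxa7: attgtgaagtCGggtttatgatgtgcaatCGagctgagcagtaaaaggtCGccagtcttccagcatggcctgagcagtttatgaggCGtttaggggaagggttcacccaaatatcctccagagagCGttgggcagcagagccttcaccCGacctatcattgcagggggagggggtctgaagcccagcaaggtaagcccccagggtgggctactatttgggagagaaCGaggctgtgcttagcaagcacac
Hoxb4: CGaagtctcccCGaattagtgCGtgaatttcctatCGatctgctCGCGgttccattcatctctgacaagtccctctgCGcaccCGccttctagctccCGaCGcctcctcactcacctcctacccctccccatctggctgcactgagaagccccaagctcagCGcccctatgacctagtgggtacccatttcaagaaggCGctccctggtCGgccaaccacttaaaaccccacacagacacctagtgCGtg
Hoxd10: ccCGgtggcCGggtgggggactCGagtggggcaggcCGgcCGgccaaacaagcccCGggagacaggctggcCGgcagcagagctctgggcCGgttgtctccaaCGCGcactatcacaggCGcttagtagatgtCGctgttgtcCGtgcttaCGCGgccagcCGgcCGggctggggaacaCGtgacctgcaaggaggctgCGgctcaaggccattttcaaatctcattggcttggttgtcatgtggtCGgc

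Over the 300-base window (250 before and 50 after the start) Hoxa5 held 29 CG dinucleotides, Hoxd10 22, Hoxb4 14 and Hoxa7 9, against a median of 7 (quartiles 3 and 20) over all 32851 mouse promoter windows in the set. CpG number overlapped between used and unused genes in these windows, which the set holds for only some members. The 5 windows of members at 1 FPKM or more in both NC libraries held 9 to 29 (median 14). They cover 5 of the 11 such members, and all 250 bases before the start of Hoxa3 lie under exons. The 8 windows of 7 members below that level held 4 to 22 (median 10.5). The motif AGGTCA (the half-site that nuclear receptors such as the retinoic acid receptors bind, searched on both strands) was found in 6 of these 13 windows, Hoxa5, Hoxb4, Hoxc4, Hoxd4, Hoxd8 and Hoxd10, and in 16.3% of all windows. Such a match is a description of letters in a window, not a binding site.

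Library totals were 17308382 and 18371959 counts in NC and 17766188 and 17545853 in siAirn, and 3 counts, the limit that a count of 0 allows, correspond to 0.163 to 0.173 CPM (counts scaled to the size of the library) per library. For Airn itself 7 and 3 counts were listed in NC and 11 and 9 in the libraries labelled siAirn. The summed ratio was 1.97 (exact binomial 95% interval 0.880 to 4.71, counting error only). The Airn counts were therefore not lower in the libraries labelled siAirn, but counts this low cannot judge a knockdown. The study reports that siAirn-1 and siAirn-2 knocked Airn down efficiently. Directions below are between labelled libraries. All 9 LSEC markers and all 8 pan-endothelial markers listed to check the labelled cell type were at 1 FPKM or more in both libraries of both groups, with summed levels in NC of 1178 and 1214 FPKM and of 3329 and 3150 FPKM. Other liver cells also left RNA in every library. The stellate cell and fibroblast list summed to 456.2 and 548.2 FPKM in NC, the hepatocyte list to 279.9 and 360.2 FPKM and the Kupffer cell and macrophage list to 174.1 and 210.7 FPKM, and no marker of these lists was at 0 in all libraries.

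The LSEC libraries held RNA of Hoxa2 to Hoxa5 and Hoxb2 to Hoxb8 at 1 FPKM or more, and of no Hoxc or Hoxd member with values. Which cells in these bulk libraries gave the Hox RNA was not tested. A member was called on in a group when it reached 1 FPKM (fragments per kilobase of transcript, scaled to the library's reads) in both libraries, at the floor when it had at most 3 counts in each, and low otherwise. In NC, 11 of the 23 genes were on (Hoxa2 to Hoxa5 and Hoxb2 to Hoxb8), 6 were low (Hoxa7, Hoxc4, Hoxc5, Hoxc6, Hoxd8 and Hoxd9) and 6 were at the floor (Hoxa10, Hoxb9, Hoxc9, Hoxc13, Hoxd4 and Hoxd10). Over all genes in the table, 62.0% were on and 17.3% at the floor in NC. By position, 6 of 8 members of paralog groups 1 to 4, 5 of 9 of groups 5 to 8 and 0 of 6 of groups 9 to 13 were on. The 11 genes on in NC were also the 11 on in siAirn, where 4 members were low and 8 at the floor. A bound of 0.5 FPKM or of 10 counts in each library, or either NC library alone, also gave 11.

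**Figure D1:**
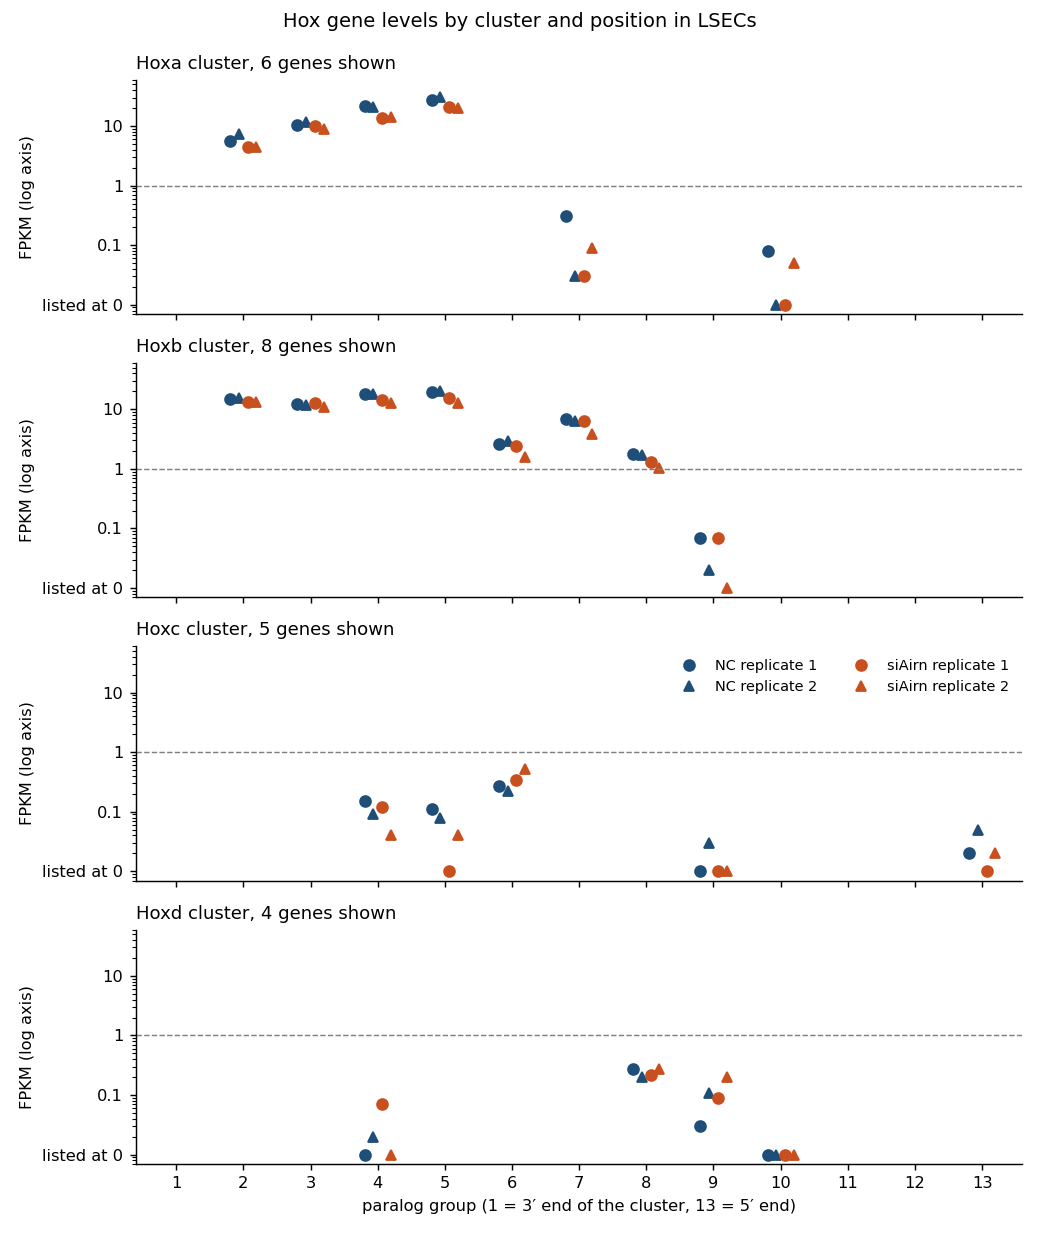
Level of each of the 23 Hox genes described (vertical axis, FPKM on a log axis; genes listed at 0 are drawn at the lowest tick) against paralog group, with 1 panel per cluster; circles and triangles are replicates 1 and 2, blue is NC and orange siAirn, and the dashed line is 1 FPKM. Hoxa drops below the line after Hoxa5 and Hoxb after Hoxb8, and no point of Hoxc or Hoxd reaches it.

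Within Hoxa the level rose from Hoxa2 to Hoxa5 and then dropped. FPKM is per length and so allows genes to be compared. Hoxa2, which patterns the cranial neural crest, was at 5.68 and 7.30 FPKM in NC. Hoxa3, needed for thymus and parathyroid, was at 10.31 and 11.53 FPKM. Hoxa4 was at 21.53 and 20.88 FPKM. Hoxa5, known for its part in lung development and a gene of quiescent endothelium, was at 27.5 and 30.89 FPKM, the highest member in both NC libraries and at the 81.9th percentile of all genes. Hoxa7 then had 0.31 and 0.03 FPKM (10 and 1 counts) and Hoxa10 0.08 and 0 FPKM (3 and 0 counts). The 4 genes that were on did not overlap in level, and from Hoxa3 to Hoxa5 each lay above its 3′ neighbour in both libraries.

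Within Hoxb the level was higher from Hoxb2 to Hoxb5, where the genes did not overlap with each other, than on the 5′ side. Hoxb2 was at 15.06 and 15.27 FPKM in NC, Hoxb3 at 12.49 and 11.66, Hoxb4, known for expanding blood stem cells, at 18.42 and 17.83, and Hoxb5, which marks long-term blood stem cells and is active in endothelial precursors, at 19.8 and 20.51. Hoxb6 was at 2.64 and 2.90 FPKM, Hoxb7 at 6.77 and 6.35 and Hoxb8 at 1.81 and 1.68. The step at Hoxb6 is therefore not a steady decline, since Hoxb7 lies above both its neighbours in each library. Hoxb9 had 0.07 and 0.02 FPKM (3 and 1 counts), and the lowest value of a gene that was on in NC (1.68 FPKM, Hoxb8) stood well above the highest value of a gene that was not (0.31 FPKM, Hoxa7).

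Across both clusters the order in NC was Hoxa5 at 29.2 ± 2.40 FPKM (SD, n = 2, as for the values that follow), Hoxa4 at 21.2 ± 0.46, Hoxb5 at 20.2 ± 0.50, Hoxb4 at 18.1 ± 0.42, Hoxb2 at 15.2 ± 0.15, Hoxb3 at 12.1 ± 0.59, Hoxa3 at 10.9 ± 0.86, Hoxb7 at 6.56 ± 0.30, Hoxa2 at 6.49 ± 1.15, Hoxb6 at 2.77 ± 0.18 and Hoxb8 at 1.75 ± 0.09. Only Hoxb7 and Hoxa2 overlapped among neighbours in this order, and Hoxb3 and Hoxa3 were separated by less than their spread. Some paralogs were not matched in level, with Hoxb2 above Hoxa2 and Hoxa5 above Hoxb5 in both libraries. Hoxa3 and Hoxb3 lay close, at 11.53 and 11.66 FPKM in NC replicate 2. The next gene, Hoxc6, was at 0.245 ± 0.035 FPKM. Levels of genes with overlapping neighbours are uncertain, since the use of strand in counting is not stated. Opposite-strand genes cover 52.9% of the exonic bases of Hoxb3 (Hoxb3os), 27.3% of Hoxb2, 25.4% of Hoxa3, 16.0% of Hoxa4 and 3.59% of Hoxb5, and a same-strand gene (Gm28308) covers 15.0% of Hoxa2 and 8.02% of Hoxa3, while Hoxa5, Hoxb4, Hoxb6, Hoxb7 and Hoxb8 have no such overlap.

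Summed over members, the Hox level in NC was 143.3 and 147.7 FPKM. Hoxa held 46.7% of it and Hoxb 52.7% (means of the 2 libraries), while Hoxc held 0.351% and Hoxd 0.216%. The Hoxc sum was 0.55 and 0.47 FPKM and the Hoxd sum 0.30 and 0.33 FPKM. Hoxd4 is the only member of paralog groups 1 to 4 at the floor, with 0 and 1 counts in NC, and 46.8% of its 50-base windows also occur in other genes. The 6 members of groups 9 to 13 had at most 4 counts in any NC library, so their RNA was at the limit of what this depth can show, and absence is not shown by it.

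**Figure D2:**
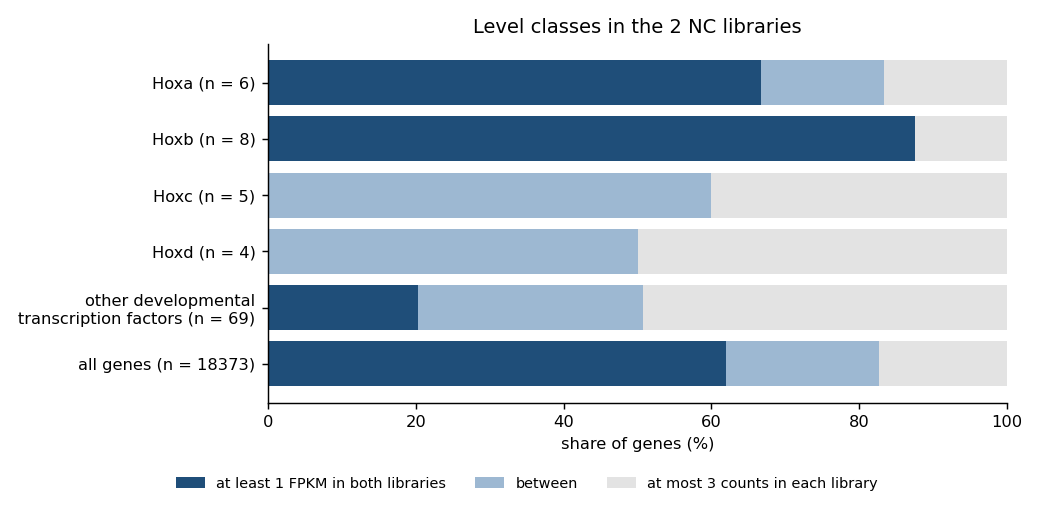
Share of genes (horizontal axis, percent) that were on, low or at the floor in the 2 NC libraries, for each Hox cluster, for 69 other developmental transcription factor genes and for all 18373 genes. Hoxa (4 of 6 genes on, 66.7%) lies near all genes (62.0% on), Hoxb (7 of 8 on, 87.5%) lies above them, and Hoxc and Hoxd have no gene on.

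The mixed state of the Hox genes was set beside that of other developmental regulators that Polycomb is known to hold silent, such as Pax, Sox, Tbx, Lhx and Fox genes. Of 100 listed, 69 had values, of which 14 (20.3%) were on in NC, 21 low and 34 (49.3%) at the floor. Among the Hox members, 47.8% were on and 26.1% at the floor, and all of the genes that were on lay in Hoxa and Hoxb. This is a description of these lists, with no test. The same 2 counts in siAirn were 14 on and 30 at the floor.

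The comparison of siAirn with NC asks which genes differ after transfection with siRNA against Airn, and for the Hox genes whether any silent member came on or any used member changed. No silent member came on, and 5 of the 11 used members were lower past the test, while the other 6 did not pass it. edgeR's quasi-likelihood test was run over 13628 genes, with Benjamini-Hochberg adjustment over all of them, and the 11 genes that were on were the Hox genes described with enough counts to be tested (at least 37 counts in every library). Of these 11, 5 were called lower in siAirn (adjusted p under 0.05), namely Hoxa2, Hoxa4, Hoxa5, Hoxb4 and Hoxb5, where 8.56% of all genes tested were called lower and 16.8% in either direction. None was called higher, where 8.27% of all genes tested were. At an unadjusted p under 0.05 the count higher was also 0, against 16.8% of all genes, while 6 were lower at that level (with Hoxb8 as the sixth, against 17.2%), and the count higher stayed 0 with DESeq2, limma and each of the other settings tried. All 11 log2 fold changes were below 0 (49.9% of all genes tested), with a median of -0.55 beside 0.00 over all genes tested. In 10 of the 11 both siAirn libraries lay below both NC libraries, which 31.9% of all genes tested did, and Hoxb3 was the exception. None had both siAirn libraries above both NC libraries, which 30.9% of all genes tested did. At the threshold the study names (fold over 1.4 and p under 0.05), 5 were lower, with Hoxb8 in place of Hoxb4, against 4.72% of all genes tested, and none was higher, against 5.25% (9.96% in either direction). Leaving out either NC library brought the count of Hox genes called lower to 0, in fits that called 40 genes in all without NC replicate 1 and 0 without NC replicate 2.

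**Figure D3:**
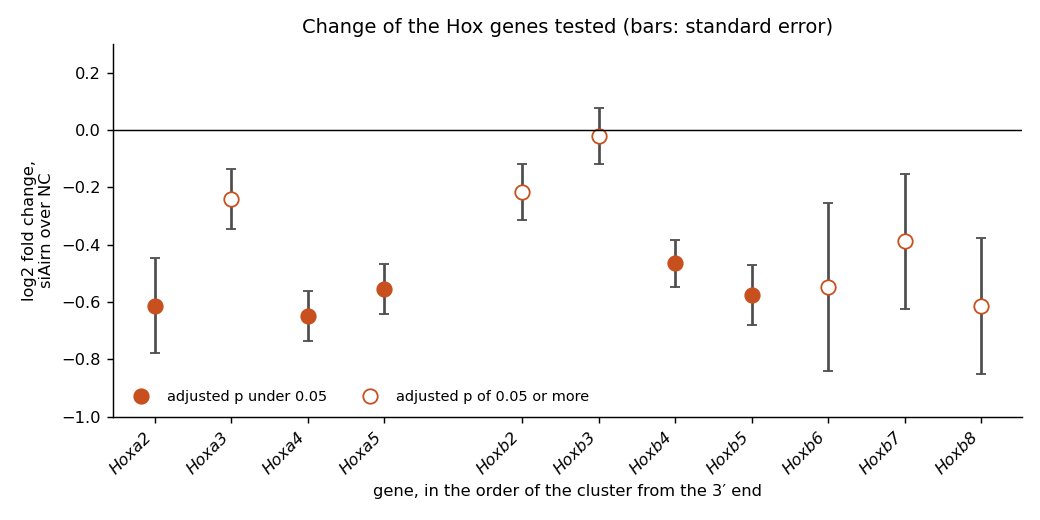
Log2 fold change of siAirn over NC with its standard error (vertical axis) for 11 Hox genes tested, in cluster order from the 3′ end; filled points passed the edgeR test (adjusted p under 0.05) and open points did not. All 11 points lie below 0, from -0.65 at Hoxa4 to -0.02 at Hoxb3.

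Among the Hoxa genes, Hoxa4 and Hoxa5 changed most clearly. Hoxa4 (chr6:52189671-52191753) had 30.7 and 29.9 CPM in NC and 18.9 and 19.7 CPM in siAirn, scaled by TMM as are the CPM values that follow. The groups were well apart, with means of 30.3 ± 0.60 and 19.3 ± 0.53 (SD, n = 2). Its log2 fold change was -0.65 (SE 0.09, edgeR adjusted p = 0.00853), 1.57-fold lower. Hoxa5 (chr6:52201754-52204587), the most abundant member, had 48.9 and 55.1 CPM in NC against 36.5 and 34.4 in siAirn. Its log2 fold change was -0.55 (SE 0.09, edgeR adjusted p = 0.0120), 1.47-fold lower, and it stayed the most abundant member by FPKM in siAirn (21.19 and 19.76). Hoxa2 (chr6:52162417-52164831) had 9.51 and 12.3 CPM in NC and 7.08 and 7.18 CPM in siAirn, so its NC libraries differed more from each other than those of Hoxa4. Its log2 fold change was -0.61 (SE 0.17, edgeR adjusted p = 0.0474). This call was also made in 4 of the 9 alternative settings that keep all libraries, with adjusted p over those 9 from 0.00745 to 0.126, and was lost when any 1 library was left out. Without NC replicate 2 the log2 value was -0.42.

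The other Hoxa gene that was on moved less. Hoxa3, which lies between Hoxa2 and Hoxa4, had 25.7 and 29.0 CPM in NC and 24.3 and 22.1 CPM in siAirn (log2 fold change -0.24, SE 0.10, edgeR adjusted p = 0.155). Without NC replicate 2 its log2 value was -0.15, and with GC and length taken into account it was -0.13. The ratio of Hoxa4 to Hoxa3 in FPKM was 2.09 and 1.81 in NC and 1.39 and 1.56 in siAirn, a contrast chosen after the values were seen and not tested.

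Among the Hoxb genes, Hoxb4 and Hoxb5 were called lower. Hoxb5 (chr11:96303336-96306121) had 35.6 and 37.0 CPM in NC against 26.5 and 22.2 CPM in siAirn. Its log2 fold change was -0.57 (SE 0.10, edgeR adjusted p = 0.0168), 1.49-fold lower. Hoxb4 (chr11:96318267-96321638) had 45.6 and 44.3 CPM in NC against 34.1 and 31.0 CPM in siAirn. Its log2 fold change was -0.47 (SE 0.08, edgeR adjusted p = 0.0154), 1.38-fold lower. With GC and length taken into account the log2 value of Hoxb4 was -0.34 and the call was lost. Both genes were apart between the groups by more than the spread within either.

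Hoxb3, the 3′ neighbour of Hoxb4, did not follow them. It had 38.7 and 35.9 CPM in NC and 39.5 and 34.1 CPM in siAirn, so that the groups overlapped (log2 fold change -0.02, SE 0.10, edgeR adjusted p = 0.910). The ratio of Hoxb4 to Hoxb3 in FPKM was 1.48 and 1.53 in NC and 1.10 and 1.15 in siAirn, likewise chosen after the values were seen and not tested. The antisense gene Hoxb3os covers 52.9% of Hoxb3's exonic bases, and whether its reads are among the Hoxb3 counts was not tested. Hoxb2, on the other side, had 19.0 and 19.7 CPM in NC and 16.3 and 17.1 CPM in siAirn (log2 fold change -0.22, SE 0.10, edgeR adjusted p = 0.172). With GC and length taken into account its log2 value was -0.12.

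The central Hoxb genes on the 5′ side had log2 values of like size but wider spread. Hoxb6 had 3.73 and 4.42 CPM in NC and 3.48 and 2.09 CPM in siAirn (log2 fold change -0.55, SE 0.29, edgeR adjusted p = 0.235). Hoxb7 had 7.88 and 7.41 CPM in NC and 7.19 and 4.47 CPM in siAirn (log2 fold change -0.39, SE 0.23, edgeR adjusted p = 0.288). For both genes siAirn replicate 2 was far below siAirn replicate 1, and it carried most of the difference. Without it the log2 values were -0.23 for Hoxb6 and -0.09 for Hoxb7, and without siAirn replicate 1 they were -0.96 and -0.77, where Hoxb7 was called (edgeR adjusted p = 0.0356, with the single siAirn library assumed to vary as the NC libraries do). Hoxb8, the last Hoxb gene that was on, had 4.03 and 3.76 CPM in NC and 2.82 and 2.26 CPM in siAirn, with no overlap (log2 fold change -0.61, SE 0.24, edgeR adjusted p = 0.121).

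**Figure D4:**
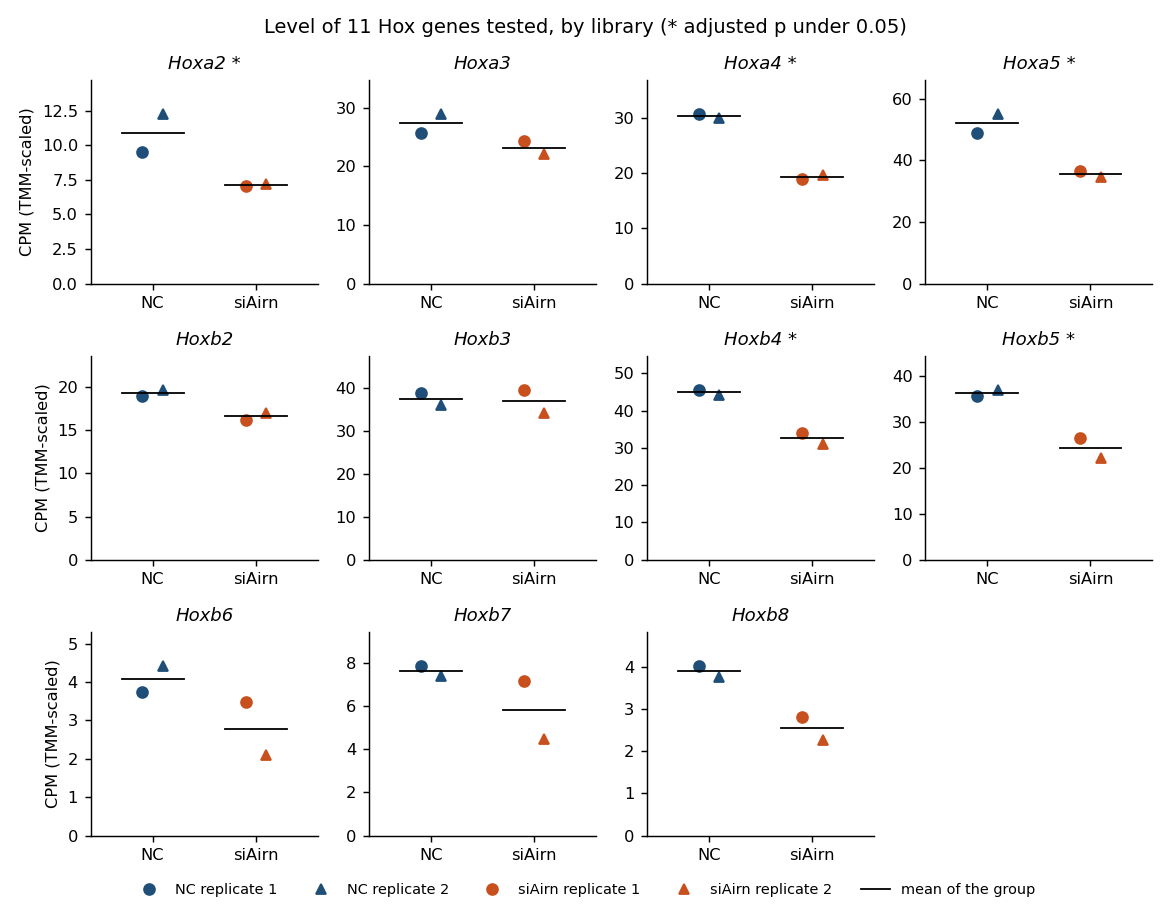
TMM-scaled CPM (vertical axis, starting at 0 in each panel) of 11 Hox genes tested, by library; circles and triangles are replicates 1 and 2, the line is the group mean of 2 libraries, and a star marks an adjusted p under 0.05. The siAirn points lie below the NC points in every panel other than Hoxb3, and the siAirn points of Hoxb6 and Hoxb7 are wide apart.

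By cluster, 3 of 4 Hoxa genes tested and 2 of 7 Hoxb genes were called lower (8.56% of all genes tested), with median log2 fold changes of -0.58 and -0.47. The members of paralog groups 1 to 4 had a median of -0.35 (6 genes, -0.65 to -0.02) and those of groups 5 to 8 a median of -0.55 (5 genes, -0.61 to -0.39), and the difference between the classes was not tested. The summed Hoxa level went from 65.41 and 70.63 FPKM in NC to 49.25 and 47.39 in siAirn (log2 ratio of the means -0.49). The summed Hoxb level went from 77.06 and 76.22 FPKM to 65.69 and 56.33 (log2 ratio -0.33). Both siAirn libraries lay below both NC libraries for each of these sums. The summed Hoxd level went the other way, from 0.30 and 0.33 FPKM to 0.38 and 0.47 (log2 ratio 0.43), with both siAirn libraries above both NC libraries, on 22 counts in NC and 29 in siAirn. Without siAirn replicate 2 this log2 ratio was 0.27. The summed Hoxc level overlapped between the groups, at 0.55 and 0.47 FPKM in NC and 0.46 and 0.63 in siAirn (log2 ratio 0.10).

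The 12 members that were low or at the floor gave no sign of a joint rise at this depth. Their counts summed to 44 and 31 in the NC libraries and to 30 and 45 in the siAirn libraries, 75 in each group. Scaled to library size the ratio was 0.985 (exact binomial 95% interval 0.706 to 1.38, for counting error only). The 5 Hoxc genes had 35 counts in NC and 37 in siAirn (ratio 1.04, interval 0.638 to 1.70), and the 4 Hoxd genes had 22 and 29 (ratio 1.30, interval 0.720 to 2.37). None went from the floor in both NC libraries to above it in both siAirn libraries. These intervals leave room for changes of moderate size in single clusters.

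Hoxc6, a gene of the thoracic spine and forelimb, was the silent member with the most counts in siAirn. Its counts were 7 in each NC library, 9 in siAirn replicate 1 and 19 in siAirn replicate 2 (ratio 1.97, interval 1.00 to 4.05), and 19 of the 28 siAirn counts came from replicate 2. In an edgeR quasi-likelihood fit without a filter on low counts its log2 fold change was 0.96 (adjusted p = 0.370), and its level in siAirn was 0.34 and 0.53 FPKM. Hoxd9 went from 1 and 4 counts to 3 and 7 (ratio 1.97, interval 0.614 to 7.35), and Hoxd8 had 16 in each group. Hoxc5 went the other way with 5 and 4 counts in NC and 0 and 2 in siAirn (ratio 0.219, interval 0.0230 to 1.06), as did Hoxa7 with 10 and 1 against 1 and 3 (ratio 0.358, interval 0.0832 to 1.21). The remaining members had at most 5 counts in any library, and Hoxd10 had none in the 4.

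**Figure D5:**
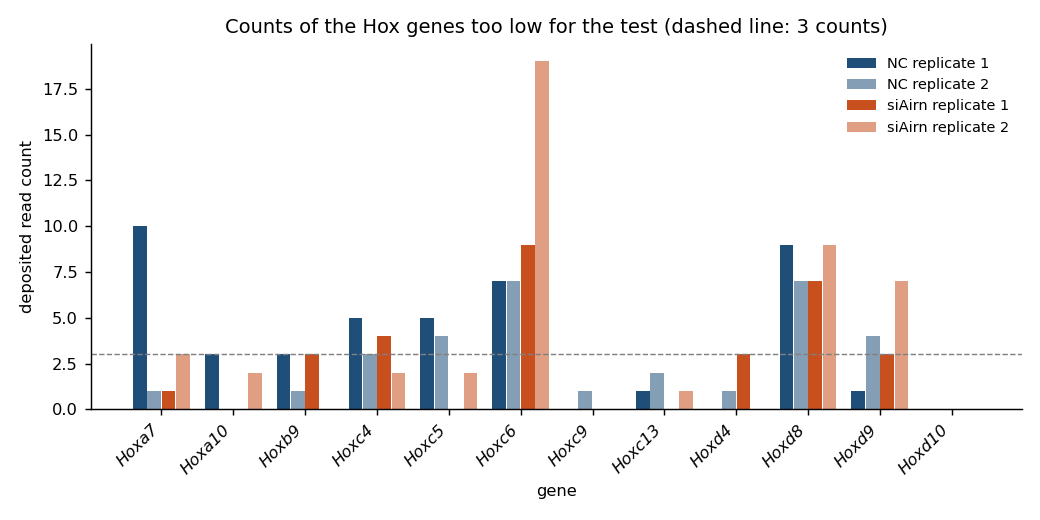
Deposited read counts (vertical axis) in each library for the 12 Hox genes too low for the test; blue bars are NC, orange bars siAirn, full colour replicate 1 and pale colour replicate 2, and the dashed line is 3 counts. Hoxc6 has the highest bar, 19 counts in siAirn replicate 2, and no gene has more than 10 in NC.

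Several measured quantities moved with the lower Hox levels. The counts of markers called are read beside the 8.56% of all genes tested that were called lower and the 8.27% called higher. Of the LSEC markers, 8 of 9 were called lower (median log2 fold change -0.58, sums of 804.1 and 731 FPKM in siAirn), and of the pan-endothelial markers 6 of 8 (median -0.55, sums of 2406 and 2072 FPKM). In contrast 4 of 10 stellate cell and fibroblast markers were called higher and none lower (median 0.42, sums of 581.2 and 737.8 FPKM), while 5 of 8 Kupffer cell and macrophage markers tested were called lower (median -0.74). Of 7 hepatocyte markers tested 1 was called higher, close to the share over all genes (median 0.39). No lymphocyte, cholangiocyte or mesothelial marker was called of 3, 4 and 4 tested (medians 0.22, -0.12 and 0.34). In these bulk samples fewer cells of a type and less RNA per cell cannot be told apart, and the part of this in the Hox values was not tested. Across all genes tested, log2 fold change also went with GC content (Spearman rho -0.33, across genes, which are not independent), and the Hox transcripts tested had a median GC of 54.0% against 49.7% over all. With GC and length taken into account, 3 of 11 Hox genes (Hoxa4, Hoxa5 and Hoxb5) were called lower, beside 700 of 12948 genes in that fit, and the Hox median was -0.38.

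None of the genes for TALE homeodomain proteins (Pbx, Meis and Pknox), which bind DNA together with Hox proteins, was called. Of 9 listed, 7 were on in each group, 1 was low and 1 at the floor, and 8 were tested, with a median log2 fold change of -0.06 (-0.22 with GC and length taken into account). Meis2 was the most abundant of those by count, at 195.3 and 178.0 CPM in NC and 174.6 and 148.9 CPM in siAirn (log2 fold change -0.21, SE 0.09, edgeR adjusted p = 0.167). None of 19 listed antisense and noncoding transcripts of the Hox clusters, Hotair and Hottip among them, had values, and they were not analysed here.

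Nearly all genes listed for the Polycomb and Trithorax complexes were used at the RNA level in both groups. Their counts of calls are read beside the 8.27% of all genes tested that were called higher and the 8.56% called lower, and no direction is drawn for a list as a whole. Of 11 PRC2 genes tested, 2 were called higher and none lower (median 0.20, and 0.06 with GC and length taken into account). Suz12, a core subunit, had 54.8 and 50.0 CPM in NC and 70.4 and 66.6 CPM in siAirn (log2 fold change 0.39, SE 0.08, edgeR adjusted p = 0.0203), and Aebp2, an accessory subunit, had a log2 fold change of 0.29 (SE 0.07, edgeR adjusted p = 0.0288). Ezh2, the main methyltransferase of PRC2, had 28.8 and 29.3 CPM in NC and 31.7 and 30.9 CPM in siAirn (log2 fold change 0.11, SE 0.08, edgeR adjusted p = 0.388). Of 18 PRC1 genes tested, only Phc3 was called, higher by a log2 fold change of 0.46 (SE 0.07, edgeR adjusted p = 0.0118), and the median was 0.09 (0.0082 with GC and length taken into account).

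On the Trithorax side, 4 of 13 genes for Trithorax proteins and H3K27 demethylases were called higher and none lower (median 0.23, and 0.12 with GC and length taken into account). They were the methyltransferases Ash1l (log2 fold change 0.60, SE 0.07, edgeR adjusted p = 0.00574), Kmt2a (0.44, SE 0.07, adjusted p = 0.0124) and Kmt2b (0.30, SE 0.07, adjusted p = 0.0360) and the demethylase Kdm6b (0.41, SE 0.08, adjusted p = 0.0216). Kmt2a is known for keeping Hox genes active. Of the 25 other developmental transcription factor genes tested, 1 was called higher and 1 lower, no more than the shares over all genes tested (8.27% and 8.56%). Tbx20, a heart gene also used in endothelium, had a log2 fold change of 0.54 (SE 0.14, edgeR adjusted p = 0.0421). Gata4, which sets the LSEC programme against a continuous endothelium, had 254.2 and 249.9 CPM in NC and 180.0 and 165.9 CPM in siAirn (log2 fold change -0.54, SE 0.07, edgeR adjusted p = 0.00709). The median over those 25 was 0.22 (0.16 with GC and length taken into account), with 14 values above 0 and 11 below. The Hox median was -0.55, and the difference was not tested. Summed over the 69 genes with values, the list went from 230.2 and 231.1 FPKM in NC to 205.8 and 208.4 in siAirn. Its sum was thus lower in siAirn although its median was above 0.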

How the data were processed

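RNA of 4 LSEC libraries was sequenced as single-end 50-base reads on BGISEQ-500 by the authors, who deposited 1 gene table. Its expected counts, per the labels from Bowtie2, BWA and RSEM, were neither normalized nor all whole (76.5% to 76.8% whole) and were rounded here. Its FPKM values, a unit recognised from counts and implied lengths, were deposited as made by the authors. The build named is hg19, although the genes are mouse genes, so the build is not settled and no coordinate came from the table. Use of strand is not given in the sources used here. Gene models came from GENCODE M21 and promoters from RefSeq, both GRCm38. The columns of group averages were not used.

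Groups followed the labels. Counts were tested with edgeR 4.0.16 (TMM scaling, default filter on low counts, quasi-likelihood test, R 4.3.3), fitted to the 4 libraries with group as the only term and adjusted by the Benjamini-Hochberg method over 13628 genes. The RNA-seq methods of the study name a fold over 1.4 and p under 0.05 without saying which test gave that p. The script was tested on simulated data with known changes. The typical biological variation between libraries was 0.0754 (common coefficient of variation), and library totals lay between 17308382 and 18371959 counts. Intervals on count ratios are exact binomial ones at 95%.

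The genes named were the Hox genes at 1 FPKM or more in both libraries of a group, those called, Airn, and any that crossed 3 counts in both libraries between groups, with the others given by range and count, other than Hoxa7, Hoxa10, Hoxb9, Hoxc5, Hoxc6, Hoxd4, Hoxd8, Hoxd9 and Hoxd10, which were singled out after their values were seen. From each list up to 4 called genes, and Ezh2, were named. Meis2, which was not called, was named as the most abundant TALE gene by count in NC. 1 member of the rule is not reported here and enters no count of members, though it stayed in the fits over all genes. The members and gene lists were chosen with earlier results of these data known. Alternatives tried were DESeq2 1.42.0, limma 3.58.1 on log2(FPKM + 1) and log2(FPKM + 0.1), a likelihood-ratio test, upper-quartile scaling, other filters, a GC and length correction, a replicate block and leaving out each library.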

Additional observations from a re-analysis of the deposited data

How the results depend on the processing

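Hoxa4, Hoxa5 and Hoxb5 were called lower in all 9 alternative settings that keep the 4 libraries, Hoxb4 in 8 (adjusted p = 0.0515 with the GC and length correction) and Hoxa2 in 4. The count of Hox genes called lower was 3 with the GC and length correction and ranged from 0 to 5 when 1 library was left out, being 0 without NC replicate 1 and 0 without NC replicate 2, and the count called higher was 0 throughout. A group reduced to 1 library is assumed to vary as the other group does, and with NC reduced few genes of the whole table were called. The median Hox log2 fold change with limma was -0.34 at a pseudocount of 1 FPKM and -0.46 at one of 0.1 FPKM. It was -0.38 with the GC and length correction, and lay between -0.60 and -0.40 with 1 library left out. Hoxb3 changed sign, to 0.069 with the GC and length correction, 0.032 without NC replicate 1 and 0.082 without siAirn replicate 2 (range -0.13 to 0.082 with 1 library left out). By summed counts the NC shares were 43.8% for Hoxa and 55.6% for Hoxb. With 1 library left out, the log2 ratio of the sums lay between -0.44 and -0.22 for Hoxb, between 0.27 and 0.58 for Hoxd and, from 0.10, between -0.15 and 0.30 for Hoxc (-0.01 without NC replicate 2, -0.15 without siAirn replicate 2). The cause of these shifts was not tested.

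With the replicate number as a block, 5 Hox genes were called lower, their median over the 11 tested was -0.55, and 4841 genes of the whole table were called in place of 2294. Deviations of same-numbered libraries correlated at 0.23, but with 2 numbers and no label naming a shared batch they were not taken as pairs. Calls over the whole table numbered 1072 with the GC and length correction, 40 without NC replicate 1, 0 without NC replicate 2 and 1446 without siAirn replicate 2. Depth limits the 12 low Hox genes, for which a few counts decide each ratio.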

Other observations

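The genes next to the Hox clusters give a view of the surrounding chromosome. For each cluster the nearest protein-coding gene with values on either side was taken, a choice made with Hox results known. Skap2, an adaptor of immune cells 149.9 kb from Hoxa2, had 61.2 and 61.1 CPM in NC and 51.8 and 50.0 CPM in siAirn (log2 fold change -0.27, SE 0.07, edgeR adjusted p = 0.0382). On the other side of Hoxa, Hibadh, a mitochondrial enzyme of valine breakdown, overlapped between the groups (log2 fold change -0.05, SE 0.07, edgeR adjusted p = 0.598). Beside Hoxc, Calcoco1, a receptor of selective autophagy 198.9 kb away, was lower (log2 fold change -0.30, SE 0.06, edgeR adjusted p = 0.0237) and Smug1, a DNA repair enzyme, was not called (0.15, SE 0.09, adjusted p = 0.272). Beside the silent Hoxd cluster Lnpk and Mtx2 were used and were not called (0.06, SE 0.10, adjusted p = 0.745 and 0.08, SE 0.08, adjusted p = 0.511). Mtx2 was at 34.47 and 37.23 FPKM in NC at 60.66 kb from Hoxd, whose 4 members with values summed to 0.30 and 0.33 FPKM. The neighbours of Hoxb were nearly unused, with 1, 1, 0 and 2 counts for Calcoco2 and 7, 9, 2 and 1 for Skap1 (NC, then siAirn), while Hoxb2 to Hoxb8 were on.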
